A study of Bos taurus with 106 samples.

Results

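The genes described are 9 genes of the endoplasmic reticulum, the compartment in which secreted and membrane proteins enter the secretory pathway and take their shape. They are SSR3, DDOST, GANAB, P4HB, PDIA4, PDIA6, DNAJB11, MANF and TMEM214, and they were chosen by gene symbol. The array carried 12 elements (spotted cDNAs) for them out of 8208 elements in all, and 5598 elements had a single gene symbol. DDOST had 3 elements, called (a), (b) and (c), PDIA4 had 2, called (a) and (b), and each other gene had 1. All 12 elements were tested, and each had a value in 53 of 53 cow-days.

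Liver came from 8 Holstein dairy cows, taken repeatedly between days -65 and 49 around calving (days -65, -30, -14, 1, 14, 28 and 49). During a dry period of 65 days, 4 cows ate a diet of 1.6 Mcal/kg freely and took in about 120% of the National Research Council (NRC) energy requirement, and 4 cows were restricted to about 80% of it on the same diet. The ad libitum group had 3 cows on day -65, 2 on day 49 and 4 on each other day, and the restricted group had 4 cows on every day, so that a day held 7, 6 or 8 cows. Each cow-day was hybridised on 2 arrays of opposite dye orientation against a mixture of non-liver tissues, and both arrays were averaged into 1 value. All values are log2 ratios of liver over that reference after each array was centred on its median, so a value of 1 is a ratio of 2 to the array's median ratio. The reference sets the zero of each element separately, so values of different elements are not compared as levels.

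Proteins bound for export are threaded through a channel in the endoplasmic reticulum membrane while they are being made. There they receive N-linked sugars, have glucose residues trimmed as a quality check, form disulfide bonds and are held by chaperones until folded. Hepatocytes export most plasma proteins, so this machinery is a large part of their work, and genes for it are known to be induced together when unfolded proteins accumulate.

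The correlation between the dye orientations of a cow-day, across elements, was lower around calving, and these values belong beside every result that uses days -14, 1 or 14. It averaged 0.702 on day -65, 0.687 on day -30, 0.531 on day -14, 0.444 on day 1, 0.479 on day 14, 0.666 on day 28 and 0.701 on day 49. With each element's mean dye effect removed it averaged 0.833, 0.865, 0.779, 0.745, 0.774, 0.870 and 0.845 on the same days, a smaller drop. Of the 3 hepatocyte markers on the array, RBP4 and TF (retinol-binding protein and transferrin) were far above the reference, with means of 6.11 and 4.65 on the log2 scale over all cow-days, and APOA1 had 1.00. The hepatocyte marker mean was 4.39 on day -65, 4.12 on day -30, 3.57 on day -14, 3.48 on day 1, 3.67 on day 14, 4.25 on day 28 and 4.07 on day 49. The single neutrophil marker, S100A12, ran the other way, with 1.25, 0.96, 1.93, 2.80, 1.95, 1.21 and 1.19 on the same days. The 7 endothelial elements averaged 1.90, 1.75, 1.27, 1.18, 1.28, 1.81 and 1.92 on those days, with 5 of 7 lower and 1 higher on day -14 against day -65 and 6 of 7 higher on day 28 against day 1 in limma. Of the 7 elements for stellate cells and fibroblasts, 5 were higher on day -14 against day -65 and 3 lower on day 28 against day 1. Of 14 macrophage elements, 5 were lower and 1 higher in the first of these comparisons, and 3 were higher and 1 lower in the second. Of 5 elements for T and NK cells, 1 was higher in the first and 0 passed in the second. Among all elements 17.9% were higher and 13.8% lower in the first, and 10.3% were higher and 12.4% lower in the second. Both elements for plasma and B cells (IGHM and MZB1), another secretory lineage, missed the limma threshold on day 1 against day -14 and on day 28 against day 1. In whole tissue, fewer cells of a type and less RNA per cell cannot be told apart, and the part of these markers in the results below was not tested.

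Averaged over the cows of both diets, each of the 12 elements had its highest mean on day 1, the first sample after calving. Within the diets this held for 7 of 12 elements in ad libitum cows and 12 of 12 in restricted cows: among ad libitum cows GANAB, MANF and TMEM214 had their highest mean on day 14 and both PDIA4 elements on day -65, where that group held 3 cows. The difference between the highest and the lowest day mean went from 0.60 for PDIA4 (a) to 1.87 for SSR3 on the log2 scale. In a limma F test over the 7 days with Benjamini-Hochberg adjustment over 8061 elements, 10 of 12 member elements changed with day, and 43.4% of all elements did. The other 2 were PDIA4 (a) and MANF, with adjusted p = 0.139 and 0.121. PDIA6 no longer passed this test without cow 6886, 7045, 7050, 7105, 7161 or 7187 (limma adjusted p 0.0654 to 0.168). The p-values rest on the spread of cow-days within the 14 diet-by-day groups, pooled over all days, which is not the spread of any 1 day. For SSR3 in restricted cows the SD was 0.08 on day -30 and 0.69 on day -14 (n = 4 each).

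**Figure D1:**
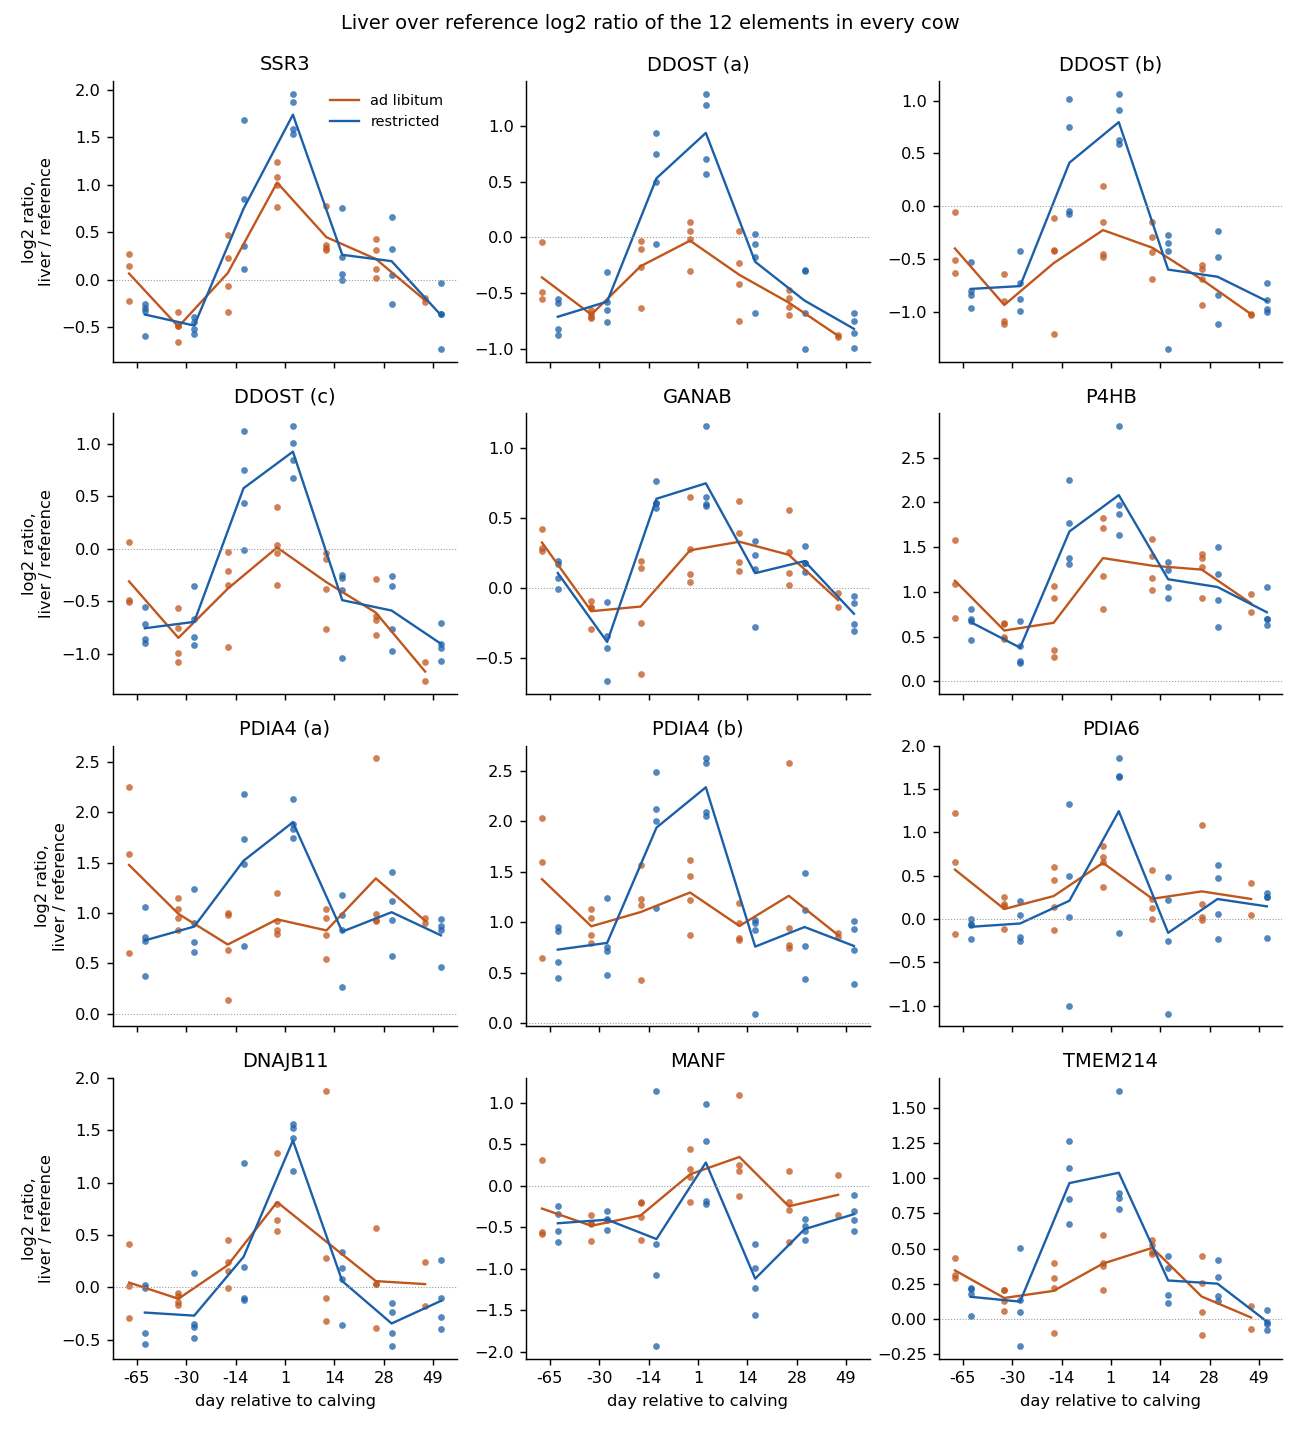
Log2 ratio of liver over reference, centred per array (vertical axis), for the 12 elements on the 7 days relative to calving (horizontal axis). Each point is 1 cow-day, and lines join the means of ad libitum and of restricted cows. The mean over all cows of a day was highest on day 1 for 12 of 12 elements.

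SSR3 encodes a subunit of the signal sequence receptor, a complex beside the protein-conducting channel that helps newly made chains enter the endoplasmic reticulum. Its lowest, median and highest log2 ratios were -0.59, -0.25 and 0.27 on day -65, -0.66, -0.49 and -0.34 on day -30, and -0.34, 0.29 and 1.68 on day -14. They were 0.77, 1.39 and 1.96 on day 1, -0.003, 0.32 and 0.78 on day 14, -0.25, 0.21 and 0.67 on day 28, and -0.73, -0.30 and -0.04 on day 49. Its lowest cow on day 1 was above the highest cow on days -65, -30, 28 and 49. Of all elements, 4.40% did not overlap between days 28 and 1, and the share was not counted for the other days. Of all 12 elements SSR3 had the largest F, 32.6 with limma adjusted p = 5.13e-12.

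Compared with day -65, SSR3 was higher on day -14 over both diets together. Day -14 averaged 0.41 ± 0.62 (SD, n = 8) and day -65 averaged -0.18 ± 0.29 (SD, n = 7). The difference was 0.56 ± 0.16 (SE, limma adjusted p = 0.00571) and 6 of the 7 cows sampled on both days were higher. The call was lost without ad libitum cow 7187 (limma adjusted p = 0.0947). Within the diets, ad libitum cows averaged 0.07 on day -14 (n = 4) and 0.07 on day -65 (n = 3), and restricted cows averaged 0.75 on day -14 and -0.36 on day -65 (n = 4 each). The diets did not start alike on day -65, and the difference between them in this change was not tested for any element. SSR3 rose again across calving: day 1 averaged 1.38 ± 0.43 (SD, n = 8), which was 0.97 ± 0.15 (SE) above day -14 with limma adjusted p = 0.000574, and 7 of 8 cows were higher. In a fit of those 2 days alone the same difference had limma adjusted p = 0.242. On day 14 SSR3 was lower than on day 1 in 8 of 8 cows, by -1.02 ± 0.15 (SE, limma adjusted p = 0.000169).

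DDOST encodes a subunit of the oligosaccharyltransferase, the enzyme that attaches N-linked sugar chains to proteins entering the endoplasmic reticulum. The lowest, median and highest log2 ratios of DDOST (a) were -0.88, -0.56 and -0.04 on day -65, -0.76, -0.67 and -0.31 on day -30, and -0.63, -0.04 and 0.94 on day -14. They were -0.30, 0.36 and 1.29 on day 1, -0.75, -0.20 and 0.06 on day 14, -1.004, -0.59 and -0.29 on day 28, and -0.9985, -0.87 and -0.68 on day 49. Days -14 and 1 spanned more than any other day, and only on these days did a cow pass 0.06.

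The 3 DDOST elements behaved alike, with correlations of 0.953, 0.971 and 0.978 between them over 53 cow-days, a description over cow-days that share cows and arrays. Day -14 was above day -65 by 0.68 ± 0.14, 0.53 ± 0.17 and 0.64 ± 0.15 for DDOST (a), (b) and (c) (SE, limma adjusted p = 0.000226, 0.0134 and 0.00157), with 6 of 7 cows higher for each. Within the diets DDOST (a) averaged -0.26 on day -14 and -0.36 on day -65 in ad libitum cows, and 0.53 on day -14 and -0.71 on day -65 in restricted cows. The means of DDOST (b) and (c) were lower on day -14 than on day -65 in ad libitum cows, by -0.14 and -0.07. The DDOST (b) call was lost without cow 7105, 7161 or 7187 (limma adjusted p up to 0.136). The step from day -14 to day 1 was smaller, between 0.32 and 0.37, and did not pass (limma adjusted p = 0.371, 0.438 and 0.347). By day 28 the elements were lower than on day 1 by -1.03 ± 0.13, -0.97 ± 0.16 and -1.07 ± 0.15 (SE, limma adjusted p = 1.4e-07, 1.55e-05 and 6.04e-07), in 8 of 8 cows for each.

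GANAB encodes the catalytic subunit of glucosidase II, which trims glucose from new N-linked sugar chains and so controls binding to lectin chaperones. Its lowest, median and highest log2 ratios were -0.004, 0.19 and 0.42 on day -65, -0.67, -0.22 and -0.09 on day -30, -0.61, 0.38 and 0.76 on day -14, and 0.05, 0.59 and 1.16 on day 1. They were -0.28, 0.21 and 0.62 on day 14, 0.02, 0.18 and 0.56 on day 28, and -0.31, -0.12 and -0.04 on day 49. The lowest medians lay on days -30 and 49, and no cow on those days was above zero. Day 28 was lower than day 1 by -0.29 ± 0.11 (SE, limma adjusted p = 0.0455), in 6 of 8 cows. That call was lost without cow 6952, 7045, 7105, 7161 or 7187, with limma adjusted p up to 0.201. The day 28 mean minus the day 1 mean was -0.03 in ad libitum cows and -0.56 in restricted cows.

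P4HB, PDIA4 and PDIA6 encode protein disulfide isomerases, which form and reshuffle disulfide bonds, and P4HB is also the beta subunit of the collagen prolyl 4-hydroxylase. P4HB had lowest, median and highest log2 ratios of 0.21, 0.48 and 0.68 on day -30, 0.27, 1.19 and 2.25 on day -14, 0.80, 1.77 and 2.85 on day 1, 0.94, 1.20 and 1.60 on day 14, and 0.61, 1.24 and 1.51 on day 28. P4HB stood above its range on day -30, the day of its lowest mean, in all 8 cows on day 1 and also on day 14. On day -65 it had 0.47, 0.70 and 1.58, which overlapped both day 1 and day 14. The share of all elements with such separations was not counted. P4HB was lower on day 28 than on day 1 by -0.58 ± 0.16 (SE, limma adjusted p = 0.00753), in 6 of 8 cows, though not without cow 7187 (limma adjusted p = 0.0600), while its difference between day 1 and day -14 was 0.56 ± 0.16 (SE) with limma adjusted p = 0.125. The 7 elements for stellate cells and fibroblasts, which make collagen, averaged -2.65, -2.52, -1.76, -1.73, -2.07, -2.52 and -2.21 over the 7 days in order, and their part in P4HB was not tested.

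The PDIA4 elements correlated at 0.919 with each other over the 53 cow-days but gave different calls. PDIA4 (b) had lowest, median and highest log2 ratios of 0.43, 1.40 and 2.48 on day -14, 0.88, 1.83 and 2.62 on day 1, 0.09, 0.96 and 1.19 on day 14, and 0.44, 0.86 and 2.57 on day 28. Its days overlapped, and the highest cow on day 28 was far from the others of its group. PDIA4 (b) was lower than on day 1 by -0.95 ± 0.21 on day 14 and by -0.71 ± 0.21 on day 28 (SE, limma adjusted p = 0.0190 and 0.0134). The day 14 call was lost without cow 6886, 7045, 7105 or 7161 (limma adjusted p up to 0.202), and the day 28 call without cow 6886 or 7045 (up to 0.0783). For PDIA4 (a) the same differences were -0.60 and -0.24, with limma adjusted p = 0.219 and 0.403. PDIA6 averaged 0.95 ± 0.71 on day 1 and 0.28 ± 0.43 on day 28 (SD, n = 8 each), and day 28 was lower than day 1 by -0.67 ± 0.24 (SE, limma adjusted p = 0.0421) in 6 of 8 cows. The PDIA6 call was lost without cow 6877, 6886, 7045, 7050, 7105 or 7187, with limma adjusted p up to 0.184.

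DNAJB11 encodes an HSP40-type cochaperone that delivers unfolded chains to BiP, the HSP70 chaperone of the endoplasmic reticulum. Its lowest, median and highest log2 ratios were -0.54, -0.01 and 0.42 on day -65, -0.49, -0.15 and 0.13 on day -30, and -0.12, 0.18 and 1.19 on day -14. They were 0.54, 1.20 and 1.56 on day 1, -0.36, 0.13 and 1.88 on day 14, -0.56, -0.19 and 0.57 on day 28, and -0.40, -0.14 and 0.26 on day 49. Outside day 1 the medians stayed near zero, and on day 14 a single cow, ad libitum cow 7050, held the highest value of all. DNAJB11 was higher on day 1 than on day -14 in 8 of 8 cows, by 0.86 ± 0.20 (SE, limma adjusted p = 0.0350). That call was lost without any of 6 of the 8 cows (6886, 6952, 7045, 7105, 7161 or 7187), with adjusted p up to 0.305, and in a fit of those 2 days alone, with limma adjusted p = 0.242. The later decline was larger: day 28 was lower than day 1 in 8 of 8 cows, by -1.25 ± 0.20 (SE, limma adjusted p = 8.25e-06).

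MANF encodes a small protein of the endoplasmic reticulum that is induced and partly secreted when protein folding is disturbed. Its lowest, median and highest log2 ratios were -0.66, -0.43 and -0.30 on day -30, -1.93, -0.51 and 1.14 on day -14, -0.22, 0.16 and 0.98 on day 1, -1.55, -0.41 and 1.09 on day 14, and -0.68, -0.45 and 0.18 on day 28. The range was narrow on day -30 and wider than any other member's on days -14 and 14. MANF was lower on day 28 than on day 1 in 8 of 8 cows, by -0.59 on the log2 scale with limma adjusted p = 0.0548.

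TMEM214 encodes a membrane protein of the endoplasmic reticulum. Its lowest, median and highest log2 ratios were 0.02, 0.22 and 0.44 on day -65, -0.10, 0.54 and 1.27 on day -14, 0.21, 0.69 and 1.62 on day 1, and -0.12, 0.21 and 0.45 on day 28. The day -14 range covered that of day -65 at both ends. Day -14 was above day -65 by 0.33 ± 0.11 (SE, limma adjusted p = 0.0170), in 4 of 7 cows, and the call was lost without cow 6877, 7161 or 7187 (limma adjusted p up to 0.0791). The diets went opposite ways: ad libitum cows averaged 0.20 on day -14 and 0.34 on day -65 and were lower in 3 of 3 cows, and restricted cows averaged 0.97 on day -14 and 0.16 on day -65 and were higher in 4 of 4. They did not start alike, with 0.29 to 0.44 in ad libitum cows and 0.02 to 0.22 in restricted cows on day -65, which was not tested. Over both diets, day 28 was lower than day 1 by -0.51 ± 0.10 (SE, limma adjusted p = 0.000277), in 6 of 8 cows.

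Counted over the 12 elements, the comparisons of days gave the following numbers beside those of the whole array. On day -14 against day -65, 5 of 12 member elements rose (SSR3, the 3 DDOST elements and TMEM214) and 17.9% of all elements did. The member median difference was 0.34 and that of all elements 0.05. The number that passed was 9 without centring, 2 in a fit of those 2 days alone and 1 with liver in Cy5 only. On day 1 against day -14, 2 of 12 rose (SSR3 and DNAJB11) and 0.298% of all elements did, but none of the 12 passed without centring, with liver in Cy3 only or in a fit of those 2 days alone. All 12 differences were positive there, and 50.8% of those of all elements were. Of the 12, 9 had an unadjusted limma p below 0.05, as had 795 of all 8061 elements. The member median was 0.36 against 0.0036 for all elements.

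After calving the direction turned. On day 14 against day 1, 6 of 12 member elements fell (SSR3, the 3 DDOST elements, PDIA4 (b) and DNAJB11) and 0.608% of all elements did, with a member median of -0.76 against -0.01 for all elements. For each element the restricted mean fell further than the ad libitum mean, which was not tested. PDIA4 (b) differed by -0.33 in ad libitum cows and -1.58 in restricted cows, and SSR3 by -0.57 and -1.47. Among ad libitum cows the means of GANAB, MANF and TMEM214 rose, by 0.06, 0.21 and 0.11. With 1 cow left out, the DDOST (b) call was lost for 3 of the 8 cows (6886, 7045 or 7161) and the DNAJB11 call for 6 (6886, 6952, 7045, 7105, 7161 or 7187), with limma adjusted p up to 0.0953 and 0.214. The number that fell was 0 of 12 without centring, 3 in a fit of those 2 days alone or with liver in Cy3 only, and 2 without the 4 cow-days of lowest dye-corrected agreement. On day 28 against day 1, 10 of 12 fell, all but PDIA4 (a) and MANF, and 12.4% of all elements did, with medians of -0.69 and 0.0029. SSR3 was the 1 member whose cows did not overlap between those days, as was the case for 4.40% of all elements. The declines were unequal in the diets: for SSR3 the means differed by -0.80 between day 28 and day 1 in ad libitum cows and by -1.54 in restricted cows, for P4HB by -0.13 in ad libitum cows and -1.03 in restricted cows, and for PDIA4 (a) by 0.41 in ad libitum cows and -0.89 in restricted cows. These differences between the diets were not tested. These comparisons share the samples of day 1, so the increase into day 1 and the decline after it are not separate evidence.

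On day 28 against day -30, which share no sample with day 1, 3 of 12 member elements were higher and 0.261% of all elements were. SSR3 averaged 0.21 ± 0.28 on day 28 and -0.49 ± 0.10 on day -30 (SD, n = 8 each here and for the next pair of genes). GANAB averaged 0.21 ± 0.16 on day 28 and -0.28 ± 0.20 on day -30. P4HB averaged 1.15 ± 0.31 on day 28 and 0.47 ± 0.19 on day -30. The differences were 0.69 ± 0.15, 0.49 ± 0.11 and 0.68 ± 0.16 (SE, limma adjusted p = 0.0293, 0.0318 and 0.0375), each in 8 of 8 cows. SSR3 and GANAB did not overlap between these days, and 0.831% of all elements did not. With 1 cow left out the number of member elements that passed went from 0 to 3, so these calls depend on the cows included, and it was 0 without centring or with either dye orientation alone. The other 9 elements differed by 0.05 to 0.25.

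On day 49 against day 28, 0 of 12 member elements passed the limma test, and 0.0124% of all elements passed. An unadjusted limma p below 0.05 was found for 3 of the 12 and for 581 of all 8061 elements. The differences of the members lay between -0.51 for SSR3 and 0.16. GANAB was lower on day 49 in every sampled cow than the lowest cow of day 28, with -0.31 to -0.04 on day 49 and 0.02 to 0.56 on day 28, a separation seen for 1.02% of all elements, but its limma adjusted p was 0.483.

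**Figure D2:**
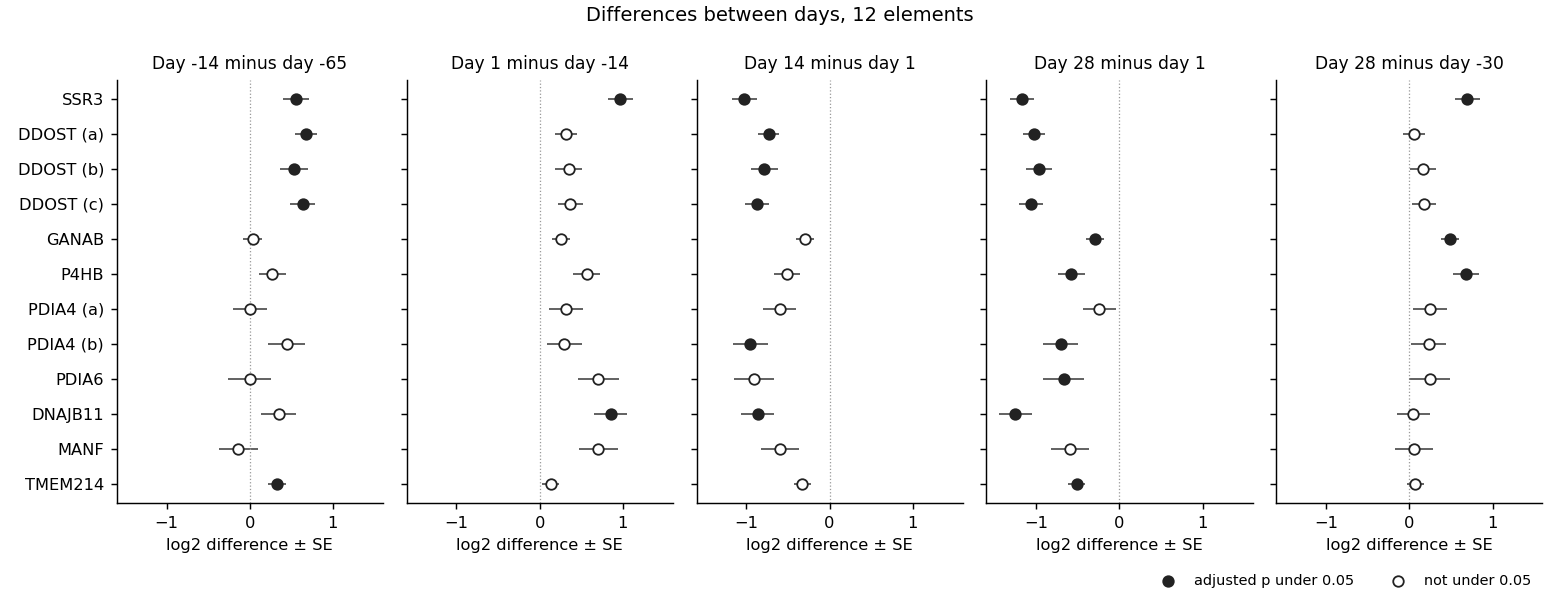
Log2 differences between days for the 12 elements, with bars of 1 standard error and filled points where the limma adjusted p was below 0.05. From day -14 to day 1 all 12 points lie above zero and 2 are filled, and on day 28 against day 1 all 12 lie below zero and 10 are filled.

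The planned comparisons of the diets used 1 value per cow, 4 cows against 4. Before calving (the mean of days -30 and -14) 0 of 12 member elements passed in limma, 5 had an unadjusted p below 0.05, and 0% of all elements passed, although 1050 elements had an unadjusted p below 0.05. Of the 12 differences 9 were negative, while 50.4% of those of all elements were positive. The member median was -0.35 against 0.0029 for all elements. DDOST (a) averaged -0.48 ± 0.14 in ad libitum cows and -0.02 ± 0.27 in restricted cows (SD, n = 4 each), and TMEM214 averaged 0.17 ± 0.14 in ad libitum cows and 0.54 ± 0.17 in restricted cows, with limma adjusted p = 0.306 and 0.316.

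After calving (the mean of days 1, 14 and 28) 1 of 12 member elements differed between the diets, MANF, and 10.5% of all elements did, so the share of members is near that of the array. MANF averaged 0.08 ± 0.13 in ad libitum cows and -0.45 ± 0.22 in restricted cows (SD, n = 4 each). By day, the MANF mean was 0.14 in ad libitum cows and 0.28 in restricted cows on day 1, the opposite direction. It was 0.35 in ad libitum cows and -1.12 in restricted cows on day 14. On day 28 it was -0.25 in ad libitum cows and -0.52 in restricted cows. For the mean of these days the groups did not overlap, a trait not counted over all elements here. The difference was 0.53 ± 0.13 (SE, limma adjusted p = 0.0204). It did not pass without centring or with either dye orientation alone. With 1 cow left out it passed for 3 of the 8 cows, with adjusted p up to 0.0717, so the call depends on the cows included. DDOST (a) was the next, at -0.37 with limma adjusted p = 0.114.

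In the change across calving (day 1 minus day -14) 0 of 12 member elements differed between the diets in limma, 0 had an unadjusted p below 0.05, and 0% of all elements passed (334 at an unadjusted p below 0.05). SSR3 changed by 0.95 ± 0.31 in ad libitum cows and 0.99 ± 0.86 in restricted cows (SD, n = 4 each). DNAJB11 changed by 0.60 ± 0.46 in ad libitum cows and 1.11 ± 0.62 in restricted cows. The differences between the diets went from -0.65 for PDIA6 to 0.32 for P4HB.

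Single days were compared between the diets after their values had been seen, and the standard errors here come from the fit of all 14 groups. On day -14 DDOST (a) had log2 ratios of -0.63, -0.27, -0.11 and -0.03 in ad libitum cows, against -0.06, 0.50, 0.75 and 0.94 in restricted cows. GANAB had -0.61, -0.25, 0.14 and 0.19 in ad libitum cows, against 0.57, 0.61, 0.61 and 0.76 in restricted cows. P4HB had 0.27, 0.34, 0.94 and 1.06 in ad libitum cows, against 1.31, 1.38, 1.76 and 2.25 in restricted cows. GANAB and P4HB did not overlap between the diets, and in DDOST (a) 1 restricted cow lay within the ad libitum range. In all 5 of 12 member elements did not overlap on day -14 (DDOST (b) and (c), GANAB, P4HB and TMEM214), beside 7.41% of all elements.

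With that fit, 7 of 12 member elements were lower in ad libitum cows on day -14 (SSR3, the 3 DDOST elements, GANAB, P4HB and TMEM214), and 5.14% of all elements were. The differences of these 7 went from -1.02 ± 0.23 for P4HB to -0.68 ± 0.21 for SSR3 (SE, limma adjusted p = 0.00717 and 0.0477), and the member median was -0.78 against 0.0048 for all elements. When the fit held only the 8 cows of that day, 0 of 12 passed and the lowest limma adjusted p of a member was 0.398. Cell type markers moved on the same day: of 5 elements for T and NK cells 3 were lower in ad libitum cows (median -0.96), of 14 for macrophages 1 passed and 8 had an unadjusted p below 0.05 (median -0.55), and the 2 for plasma and B cells had a median of -0.77 with none passing. Of the 3 hepatocyte elements none passed (median -0.28), and the part of these markers in the members' differences was not tested. Leaving out ad libitum cow 7050 or restricted cow 7105 left 1 and 2 of 12 passing in the fit of all groups. The SSR3 call was lost without cow 6877, 6886, 7050, 7105 or 7161 (limma adjusted p up to 0.252), and its difference was -0.37 without cow 6877. Without centring, or with liver in Cy3 only, 0 of 12 passed.

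On day 1 SSR3 had log2 ratios of 0.77, 1.00, 1.08 and 1.24 in ad libitum cows, against 1.53, 1.59, 1.87 and 1.96 in restricted cows. DDOST (a) had -0.30, -0.01, 0.06 and 0.14 in ad libitum cows, against 0.57, 0.71, 1.19 and 1.29 in restricted cows. PDIA4 (a) had 0.79, 0.84, 0.92 and 1.20 in ad libitum cows, against 1.75, 1.84, 1.89 and 2.14 in restricted cows. In each of these 3 every restricted cow was above every ad libitum cow. The same held for 7 of 12 member elements (SSR3 and all DDOST, PDIA4 and TMEM214 elements), while 3.44% of all elements had restricted cows above ad libitum cows without overlap and 13.1% did not overlap in either direction.

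GANAB, P4HB, PDIA6, DNAJB11 and MANF overlapped between the diets on day 1. PDIA6 had 0.37, 0.66, 0.71 and 0.85 in ad libitum cows, against -0.16, 1.64, 1.65 and 1.85 in restricted cows. With each element first set to zero at its own mean over all cow-days, the mean of the 12 elements on day 1 was 0.30 ± 0.15 in ad libitum cows and 1.04 ± 0.06 in restricted cows (SD, n = 4 each). In the fit of all groups 9 of 12 member elements were lower in ad libitum cows on day 1, all but PDIA6, DNAJB11 and MANF, and 1.91% of all elements were. The differences of those 9 went from -1.04 ± 0.30 for PDIA4 (b) to -0.48 ± 0.16 for GANAB (SE, limma adjusted p = 0.0207 and 0.0382). In a fit of the 8 cows of day 1 alone 0 of 12 passed, and SSR3, the DDOST elements and the PDIA4 elements each had limma adjusted p = 0.0853.

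Of the 3 hepatocyte, 14 macrophage, 5 T and NK and 2 plasma and B cell elements none passed in limma between the diets on day 1, with 0, 3, 0 and 1 at an unadjusted p below 0.05 and medians of -0.06, -0.34, -0.24 and -0.48, and their part in the members' differences was not tested. Measures of the arrays differed between the diets on days -14, 1 and 14. The correlation of the dye orientations averaged 0.466 in ad libitum cows and 0.595 in restricted cows on day -14, 0.336 in ad libitum cows and 0.552 in restricted cows on day 1, and 0.398 in ad libitum cows and 0.561 in restricted cows on day 14. With the dye effect removed it was 0.741 in ad libitum cows and 0.816 in restricted cows on day -14, 0.674 in ad libitum cows and 0.816 in restricted cows on day 1, and 0.752 in ad libitum cows and 0.795 in restricted cows on day 14. The median absolute deviation of all elements within a cow-day averaged 0.670 in ad libitum cows and 0.939 in restricted cows on day -14, and on day 1 it averaged 0.568 in ad libitum cows and 0.791 in restricted cows. On day 14 the deviation averaged 0.627 in ad libitum cows and 0.875 in restricted cows, and with every array scaled to the same deviation the MANF difference of that day was 1.15 (limma adjusted p = 0.00941). With every array scaled to the same deviation, 5 of 12 member elements passed on day -14 and 4 of 12 on day 1. Without ad libitum cow 7161 or 7187, 1 and 0 of 12 passed on day 1. With 1 cow left out the day 1 call was lost for 7 of 8 cows for P4HB, 6 for SSR3, GANAB and PDIA4 (b), and 5 for PDIA4 (a), with limma adjusted p up to 0.290, and the P4HB difference was -0.45 without restricted cow 6952. Without centring 0 of 12 passed on day 1, and with liver in Cy3 only 1 did.

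**Figure D3:**
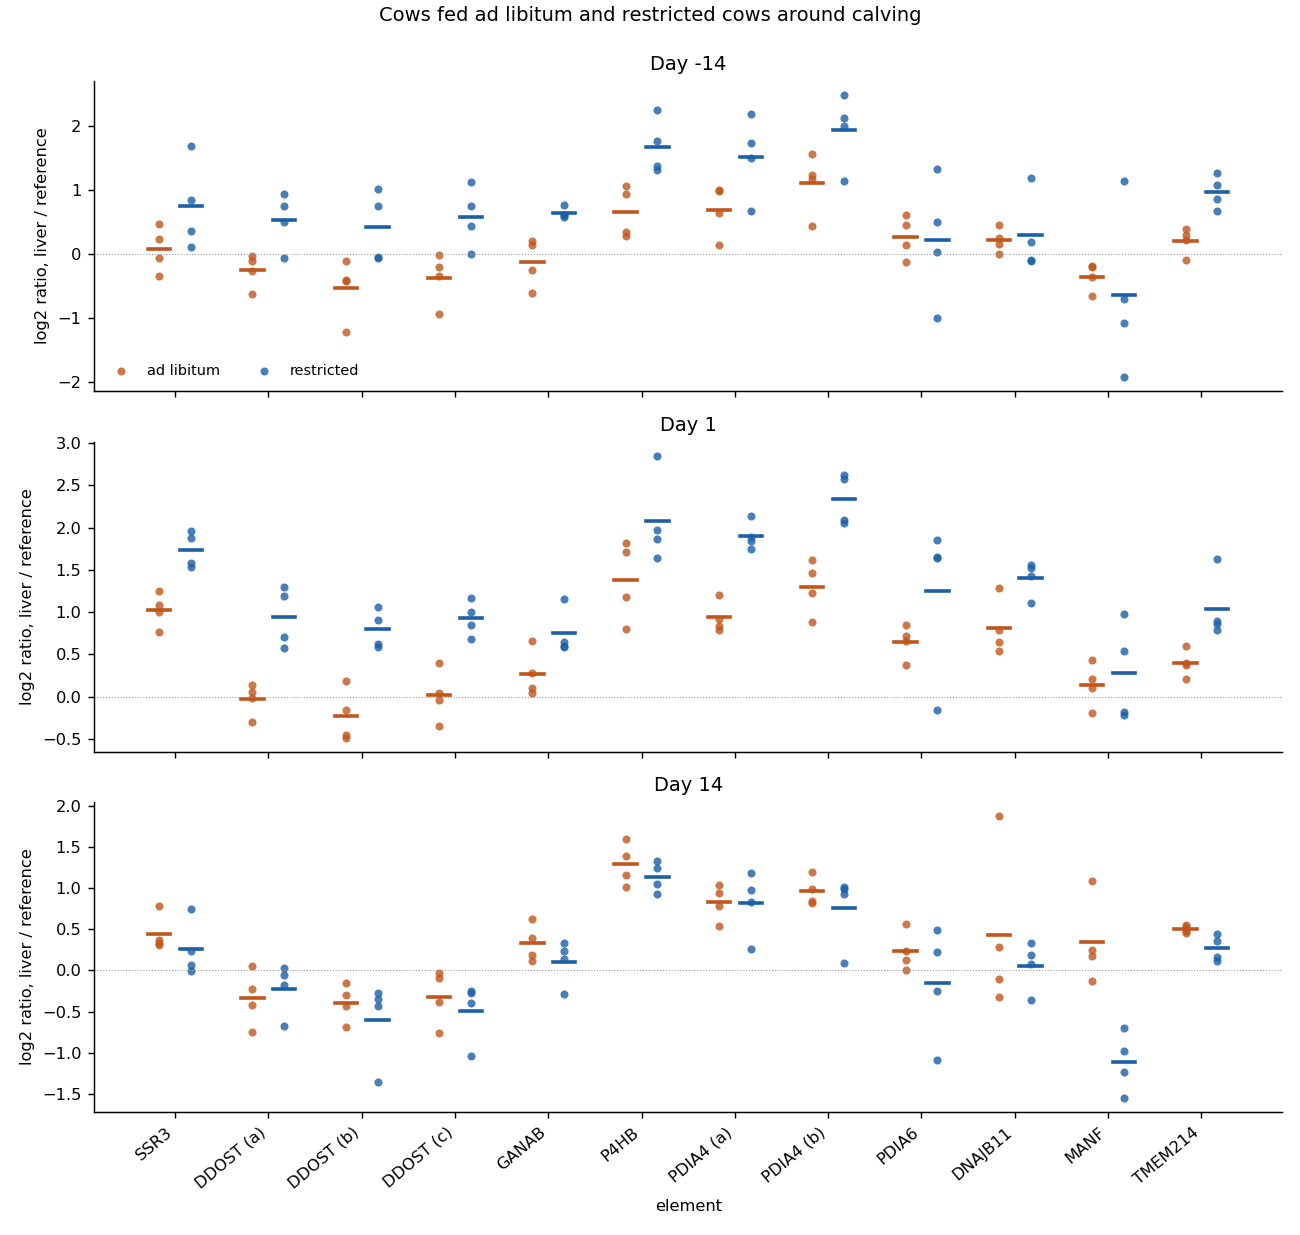
Log2 ratio of liver over reference for each cow on days -14, 1 and 14, with ad libitum cows left of restricted cows for each element. On day 1 the ad libitum points of SSR3, DDOST (a) and PDIA4 (a) all lie below the restricted points, and on day 14 the ad libitum points of MANF all lie above them.

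On day 14 MANF and TMEM214 did not overlap between the diets and the other 10 member elements did, beside 12.9% of all elements without overlap. MANF had log2 ratios of -0.12, 0.17, 0.25 and 1.09 in ad libitum cows, against -1.55, -1.24, -0.99 and -0.70 in restricted cows. Every ad libitum cow was above every restricted cow, as in 9.97% of all elements on that day. The difference was 1.47 ± 0.33 (SE, limma adjusted p = 0.00406), and with the 8 cows of day 14 alone the adjusted p was 0.0324. MANF was the 1 of 12 member elements higher in ad libitum cows on that day, where 11.6% of all elements were, so the share of members is near that of the array. Of the 14 macrophage elements 1 was higher and 3 lower in ad libitum cows on day 14, and of the 5 T and NK elements 1 was lower, and their part in MANF was not tested. By day 28 MANF had -0.68, -0.29, -0.20 and 0.18 in ad libitum cows, against -0.65, -0.55, -0.49 and -0.40 in restricted cows, and the groups overlapped.

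Over the 53 cow-days the members varied together to unequal degrees. Pearson correlations between elements of different genes, 62 pairs in all, lay between 0.167 and 0.880 with a median of 0.610, and 62 of 62 were positive. The highest were SSR3 with P4HB at 0.880 and GANAB with P4HB at 0.860, and the lowest was DDOST (a) with MANF at 0.167. Once the mean of each diet-by-day group was removed the range was -0.223 to 0.769 with a median of 0.406, and 53 pairs were positive. DNAJB11 had a median correlation of 0.556 with the other genes before and 0.0209 after removal of the group means. That median covers unlike pairs. After removal DNAJB11 still correlated at 0.629 with MANF and 0.395 with PDIA6, but at -0.223 with DDOST (a) and -0.218 with GANAB. These values are descriptions: the cow-days share 8 cows, and elements on an array share its hybridisation.

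The genes most like the mean of the members, by correlation over the 53 cow-days, were PGLS (0.949), RPN2 (0.879), PRDX4 (0.862), SSR2 (0.860), DERL2 (0.858) and PPP1R14B (0.855). PRDX4, a peroxidase of the endoplasmic reticulum, averaged -1.14, -1.12, -0.47, 0.25, -0.61, -0.99 and -1.21 on days -65, -30, -14, 1, 14, 28 and 49. PGLS, an enzyme of the pentose phosphate pathway, averaged -0.58, -0.68, -0.07, 0.31, -0.38, -0.54 and -0.76 on the same days. Both were highest on day 1, as the choice by likeness to the members would give. These 6 genes were chosen on the same cow-days, so their course over the days is not independent of the members'.

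**Figure D4:**
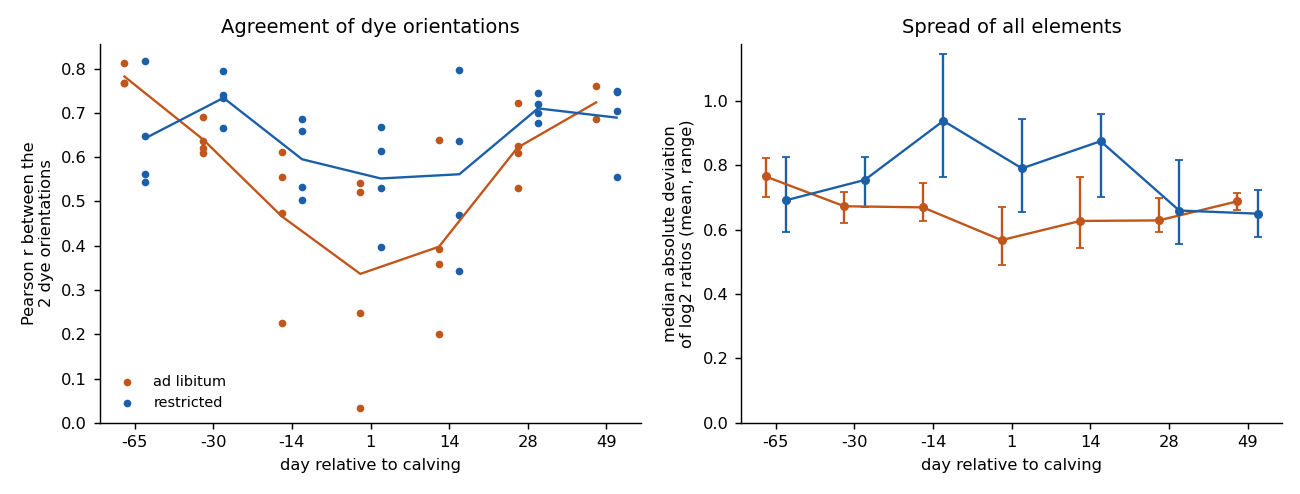
Correlation between the dye orientations of a cow-day across elements, and median absolute deviation of the log2 ratios of all elements, by day relative to calving. In the left panel points are cow-days and lines are diet means, and in the right panel points are diet means with bars from the lowest to the highest cow; ad libitum cows stand left of restricted cows. The mean correlation is 0.444 on day 1 and 0.702 on day -65.

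Other genes of the same machinery were followed as lists of 114 genes in 8 functional classes, of which 56 genes were on the array with 72 elements. On day -14 against day -65, 19 of 72 elements rose and 2 fell, while 17.9% of all elements rose and 13.8% fell. On day 1 against day -14 the median difference of the 72 was 0.15 against 0.36 for the members and 0.0036 for all elements. Of the 72, 52 were positive, where 50.8% of all elements were. An unadjusted limma p below 0.05 was found for 28 of the 72 and for 795 of all 8061 elements, and 1 of the 72 passed. That one was RNF5, a ubiquitin ligase of the endoplasmic reticulum membrane, which was lower by -0.48 ± 0.11 (SE, limma adjusted p = 0.0350). RNF5 belongs to the class for disposal of misfolded proteins, of whose 14 elements 5 rose and 0 fell on day -14 against day -65. In the same class 6 of 14 fell and 0 rose on day 28 against day 1. On day 28 against day 1, 27 of 72 fell and none rose, with a median of -0.31, while 12.4% of all elements fell and 10.3% rose.

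Among 24 elements for translocation and signal peptide removal, 12 fell on day 28 against day 1, including SSR2, the beta subunit of the signal sequence receptor, at -0.76, and 12.4% of all elements fell. All 3 elements of SSR1, the alpha subunit, were also lower. Of the other 12 none passed, and 4 of the 24 differences were positive. Among 5 elements of the oligosaccharyltransferase 4 fell, including RPN2 at -0.80 and DAD1 at -0.37 (limma adjusted p = 0.0348 for DAD1), and the difference of the other was positive. SSR2 and RPN2 are among the 6 genes picked for likeness to the members, which partly fixes their decline, so their values are a description.

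The isomerase relatives of P4HB, PDIA4 and PDIA6 and the partners of GANAB were measured by few elements. Of 6 elements for disulfide formation outside the members, and of 5 for glucose trimming and lectin chaperones, 0 passed on day 28 against day 1 in limma, with 2 and 1 at an unadjusted p below 0.05. The differences of the glucose trimming and lectin elements were positive in 4 of 5, with a median of 0.30, where that of GANAB was -0.29. On day 1 against day -14 the disulfide class had 2 of 6 positive differences and a median of -0.08. PDIA3, another disulfide isomerase and 1 of those 2, differed by 0.49 between day 1 and day -14 (limma adjusted p = 0.371), and CALR, the lectin chaperone calreticulin, by 0.37 (limma adjusted p = 0.426). HSP90B1, the HSP90 of the endoplasmic reticulum, differed by 0.93 ± 0.39 (SE, limma adjusted p = 0.383). In its class of 9 elements for HSP70 and HSP90 chaperones with cofactors, 0 passed on day 1 against day -14. Of these 9, 2 fell on day 28 against day 1, where 12.4% of all elements fell. FKBP2, a prolyl isomerase, was higher on day -14 than on day -65 by 0.75 and lower on day 28 than on day 1 by -1.05 (limma adjusted p = 0.00168 and 1.95e-05).

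Of 7 elements for stress signalling, 4 rose on day -14 against day -65, including ATF4, a transcription factor of the stress response, by 0.60 and DDIT3, a target of ATF4, by 0.51 (limma adjusted p = 0.00689 and 0.00691), in a comparison where 17.9% of all elements rose. DNAJB11 differed by 0.35 in that comparison (limma adjusted p = 0.205). On day 1 against day -14, 0 of these 7 elements passed in limma and 1 had an unadjusted p below 0.05.

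**Figure D5:**
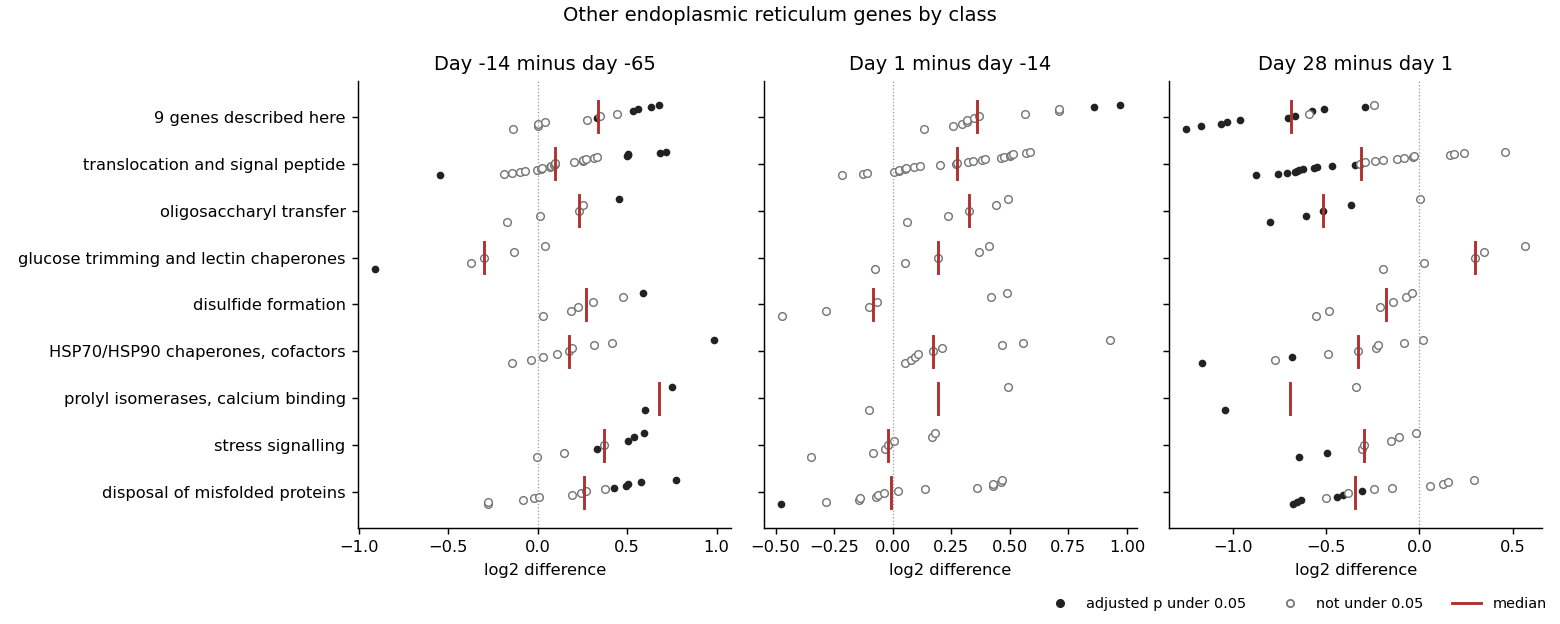
Log2 differences between days for the 72 elements of other endoplasmic reticulum genes, by functional class, with the 12 member elements shown first. Filled points passed limma with adjusted p below 0.05. On day 28 against day 1 the filled points of the other genes, 27 of 72, all lie below zero.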

How the data were processed

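The authors deposited 106 arrays of 16416 spots as log2 ratios, Cy5 over Cy3, scanned and read with GenePix per the labels' protocols. For background correction, spot filters and normalization, the steps are not given in the sources used here. Base 2 was inferred from the values: an absolute value of 1 occurred 4288 times, against 315 at 0.999 and 279 at 1.001. Deposited array medians went from -1.687 to 1.801. Cows, days and dyes came from the titles, and diets from the sample descriptions. For the dyes the titles were used because the longer sample text of 4 arrays named the opposite dye.

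Averages were taken over the 2 spots of an element (8208 elements). Of the spot values 21368, or 1.23%, were missing, and the other spot of the element then stood alone. Ratios were next expressed as liver over reference, with each array median set to 0, and averaged over both dye orientations. An element missing in either orientation had no value for that cow-day. Elements with at least 2 cows in each of 14 diet-by-day groups were tested (8061). Symbols were read from the annotation of the platform. Of all elements, 2515 elements had no symbol and 95 had several, and none of those with several held a member. Of the identifiers of single-symbol elements, 5591 were found in the RefSeq table of genes for ARS-UCD2.0.

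Days were compared with limma 3.58.1 and statmod 1.5.0 in R 4.3.3, in a fit of 14 group means with cow as a random replicate block (estimated correlation 0.0176), since the same cows were sampled on each day. Diets were weighted equally. The 3 planned diet comparisons used 1 value per cow, and the 3 comparisons of diets on single days were added after the values had been seen. All tests were two-sided, and p-values were adjusted by Benjamini-Hochberg within a comparison, with a threshold of 0.05. The fits of day 1 against day -14 and of the diets after calving were run on simulated data with known changes. That noise was independent, without cow effects or a wider spread around calving, so it cannot show how the fits behave under these. The number of arrays and cows limits the precision, and spot intensities were not used here.

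All 12 member elements are named whatever their result. Of the other endoplasmic reticulum genes, up to 4 per class with the smallest p on day 1 against day -14, and up to 4 that passed there or over the days, could be named, together with the 6 elements most correlated with the members' mean. The members and lists were chosen with earlier results of these data known. Alternatives changed the centring, the scaling, the dye orientation, the block, the samples in the fit and the cows.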

Additional observations from a re-analysis of the deposited data

Results flagged for a closer look

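In 11 of 144 groups of 4 cows (1 element, diet and day each), the highest or lowest cow stood apart from the other 3 by Dixon's 95% criterion, and chance alone marks about 1 in 20 groups. Ad libitum cow 7161 did so on day 28 for PDIA4 (a), at 2.54 with the others from 0.92 to 0.99, for PDIA4 (b), at 2.57 with the others from 0.75 to 0.95, and for PDIA6, at 1.08 with the others from -0.007 to 0.18. The same cow stood apart for SSR3 on day 14, at 0.78 with the others from 0.31 to 0.37.

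Restricted cow 6952 stood apart on day 1 for GANAB, at 1.16 with the others from 0.58 to 0.65, for TMEM214, at 1.62 with the others from 0.78 to 0.90, and, on the low side, for PDIA6, at -0.16 with the others from 1.64 to 1.85. On day 49 it stood apart for P4HB, at 1.06 with the others from 0.63 to 0.70. Restricted cow 7045 was low on day 14 for DDOST (b), at -1.35 with the others from -0.43 to -0.27, and for PDIA4 (b), at 0.095 with the others from 0.93 to 1.02. Restricted cow 7105 was low for PDIA6 on day 49, at -0.22 with the others from 0.25 to 0.30.

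In 4 comparisons of days every cow of one diet moved one way and every cow of the other diet the opposite way, and the difference between the diets was not tested. On day -14 against day -65, 3 of 3 ad libitum cows were lower and 4 of 4 restricted cows higher for GANAB, with diet means that differed in their change by -0.99 (ad libitum minus restricted), and likewise for TMEM214, by -0.96. The ad libitum cows were already the higher ones on day -65. GANAB had 0.27 to 0.42 in ad libitum cows and -0.004 to 0.19 in restricted cows on that day. TMEM214 had 0.29 to 0.44 in ad libitum cows and 0.02 to 0.22 in restricted cows. On day 49 against day 28, 2 of 2 ad libitum cows were lower and 4 of 4 restricted cows higher for DNAJB11 and for MANF, and the changes of the diet means differed by -0.24 and -0.042. For MANF the ad libitum mean itself was higher on day 49, by 0.14, because 2 of the 4 cows of day 28 had no day 49 sample.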

How the results depend on the processing

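Of 778 alternative values for differences that passed, 778 kept their direction and 528 still passed. Without the replicate block, or with cow as a fixed replicate block, the number of the 12 member elements passing was 10 over the days, 5 on day -14 against day -65, 2 on day 1 against day -14, 6 on day 14 against day 1, 10 on day 28 against day 1, 3 on day 28 against day -30 and 0 on day 49 against day 28, as reported. With 1 cow left out these counts went from 9 to 11, 2 to 5, 1 to 4, 3 to 7, 7 to 10, 0 to 3 and 0 to 0. For the diets they went from 0 to 0 before calving, 0 to 1 after calving, 0 to 0 in the change, 1 to 8 on day -14, 0 to 9 on day 1 and 1 to 1 on day 14.

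Other settings moved some counts, and the cause was not tested. On day -14 against day -65 they were 9 without centring, 1 with liver in Cy5 only and 2 with the groups of both days only. On day 1 against day -14 they were 1 with arrays scaled to the same deviation, with agreement as a covariate, or without the 4 cow-days of lowest dye-corrected agreement, and 0 without centring, with liver in Cy3 only or with both days only. On day 14 against day 1 they were 0 without centring, 3 with Cy3 only or both days only and 2 without those 4 cow-days. On day 28 against day -30 they were 0 without centring or with either dye alone, and 1 without the 20 cow-days whose orientations correlated under 0.6, a setting that gave no value for comparisons that use days 1 or 14. On day 49 against day 28 the count was 2 with both days only. For the diets after calving it was 0 without centring or with either dye alone. On day -14 it was 0 without centring, with Cy3 only or with the 8 cows of that day alone. On day 1 it was 0 without centring or with that day's cows alone, 1 with Cy3 only, 4 with scaled arrays and 3 without the 4 cow-days. Without centring the median of all elements itself shifted by 0.54 on day -14 against day -65, -0.23 on day 14 against day 1, -0.68 on day 28 against day 1, -0.15 on day 28 against day -30 and 0.34 on day 49 against day 28, and the share of calls that were higher was 98.4% on day -14 against day -65 and 1.14% on day 28 against day 1, where it was 56.5% and 45.4% with centring.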

Other observations

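In ad libitum cow 7161 both PDIA4 elements and PDIA6 were higher on day 28 than on day 1. PDIA4 (a) had 1.20 on day 1, 0.78 on day 14 and 2.54 on day 28, PDIA4 (b) had 1.62, 0.83 and 2.57 on those days, and PDIA6 had 0.71, 0.006 and 1.08. P4HB, the other isomerase, had 1.71, 1.60 and 1.37 on days 1, 14 and 28 in that cow, and its DNAJB11 value was 0.79 on day 1 and 0.57 on day 28. PDIA4 (a) was higher on day 28 than on day 1 in 3 of 8 cows. This was noticed after the values were seen and was not tested.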
